A study of Mus musculus with 4 samples.

Results

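Solute carriers are the membrane proteins that move sugars, amino acids, ions, metals, vitamins and metabolites across the plasma membrane or into organelles, and their gene symbols start with Slc followed by a family number. The genes described here are the 109 that reached a log2 level of 5 or more on at least 1 of 4 mouse expression arrays, out of 361 genes with such a symbol and 22180 genes in all. Slc4a1, Slc25a37, Slc26a3 and Slc6a14 also passed the minimum and were left out by name. The minimum was applied to the same levels that are reported below, so levels, counts and differences are descriptions of these arrays. Nearest to the minimum were Slc39a11, inside with a highest level of 5.03, and Slc20a2, outside with 4.97.

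Each array was 1 sample. The labels name 4 groups: colonic lamina propria T cells, small intestinal intraepithelial lymphocytes (IEL, which lie within the gut epithelium), colon IEL of unmanipulated mice, and colon IEL of recolonized mice. All mice were C57Bl/6 animals of 8 to 10 weeks. The study text describes a pool of 10, with 5 males and 5 females, as made for every sample in one place and as a total in another. The recolonized mice drank flavoured water with ampicillin and neomycin (0.01% each) and metronidazole and vancomycin (0.05% each) for 7 days. They were then recolonized from untreated littermates for 7 days, described both as co-housing and as transfer of used bedding. T cells were enriched in every group by magnetic negative selection, with an antibody to the epithelial surface protein EpCAM added. With 1 array per group no difference has a replicate check, no test is possible, and no p-value is given. The level is the deposited log2 value of a gene's brightest probe set, so levels are compared between arrays for the same gene and not between genes.

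The enterocytes that line the gut carry different solute carriers on the surface that faces the lumen and on the surface that faces the blood, and a nutrient crosses the cell by passing both. In the small intestine these proteins absorb sugars, peptides and amino acids, whereas the colon takes up short-chain fatty acids and exchanges salt and bicarbonate. Lymphocytes also depend on solute carriers, mostly for amino acids, glucose, nucleosides and metabolites of the mitochondria.

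The content of the arrays was checked with marker genes before the solute carriers were read. For the lamina propria T cell label, 0 of 9 measured T cell markers reached a level of 5 on the array and their median was 2.41, while all 8 colonocyte markers and all 10 pan-epithelial markers did, with medians of 10.57 and 8.42. These transcripts go against the label, so the name "lamina propria-labelled array" is used for it throughout. T cell markers had medians of 5.95, 6.48 and 7.04 on the small intestinal IEL, colon IEL and recolonized arrays. All 12 small intestinal enterocyte markers reached 5 on the small intestinal IEL array (median 9.51) and 5 on the lamina propria-labelled array (median 4.78). On the colon IEL array 0 did (median 2.27) and on the recolonized array 1 (median 2.81). Of the 8 colonocyte markers, 4 reached 5 on small intestinal IEL (median 4.85), 2 on colon IEL (median 3.53) and 6 on the recolonized array (median 6.68). In such bulk samples fewer cells of a type and less RNA per cell cannot be told apart, and how much of each solute carrier signal came from lymphocytes or from epithelium was not tested.

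Most of the brightly expressed solute carriers were dim on both colon IEL arrays and bright on 1 or both of the lamina propria-labelled and small intestinal IEL arrays. These are called epithelium-rich here on pan-epithelial markers only, of which 10 and 8 of 10 reached 5 on them. On colon IEL and recolonized colon IEL 1 and 6 did. The recolonized array also held epithelial transcripts: 6 of 8 colonocyte markers reached 5 on it, against 4 on small intestinal IEL. All 7 goblet cell markers reached 5 on the recolonized and on the small intestinal IEL array. The level of 5 was reached on both epithelium-rich arrays by 44 of the 109 (40.4%, against 52.7% of genes at the same minimum), and on a single array of the 4 by 64 (58.7%, against 39.0%). The level of 5 was reached by 84 of the 109 on the lamina propria-labelled array, by 68 on the small intestinal IEL array, by 9 on the colon IEL array and by 19 on the recolonized array. As shares these were 77.1%, 62.4%, 8.26% and 17.4%. Among the 4143 genes of any kind chosen by the same minimum, the shares in the same order were 81.7%, 67.0%, 27.4% and 37.3%. The median level of the solute carriers was 6.04, 5.19, 3.37 and 3.40 in that order, against medians over all genes of 2.18, 2.24, 2.41 and 2.39. On the colon IEL array 19 of the 109 lay under the median of all genes, and on the recolonized array 17. On small intestinal IEL 0 did, and on the lamina propria-labelled array 5 did (Slc2a2, Slc5a12, Slc5a4b, Slc6a19 and Slc7a15). Of the 4143 genes at the minimum, 253, 174, 65 and 114 did so on these arrays in the same order. The low end of these arrays limits the size of the differences given below, and their order among genes near it.

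The highest level fell on the lamina propria-labelled array for 69 solute carriers (62.1% of genes at the level minimum did so), on the small intestinal IEL array for 35 (25.7%), on the recolonized array for 3 (8.91%) and on the colon IEL array for 2 (3.26%). By a margin of 2-fold or more over each other array, the counts were 51 for the lamina propria-labelled array, where 26.0% of genes at the level minimum did so, and 28 for the small intestinal IEL array, where 7.39% did so. These counts are 46.8% and 25.7% of the solute carriers. The colon IEL array led by this margin for 2 (1.18% of genes at the minimum) and the recolonized array for 0 (0.893%). With the lamina propria-labelled array removed, an alternative added after the data had been seen, the small intestinal IEL array led by 2-fold for 65 of the 109, a share of 59.6%, where 34.7% of genes at the minimum did so. The colon IEL array then led by 2-fold for 2 (1.35%) and the recolonized array for 0 (1.54%). The level minimum was not applied anew after the removal. Of the 109, 69 reached it on a remaining array and 40 only on the removed one (36.7%, against 27.5% of genes at the minimum). The leads without the lamina propria-labelled array therefore include genes under the minimum on every remaining array, in both the solute carriers and the background. The range over the 4 arrays had a median of 3.38 for the solute carriers and 2.20 for all genes at the minimum.

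**Figure D1:**
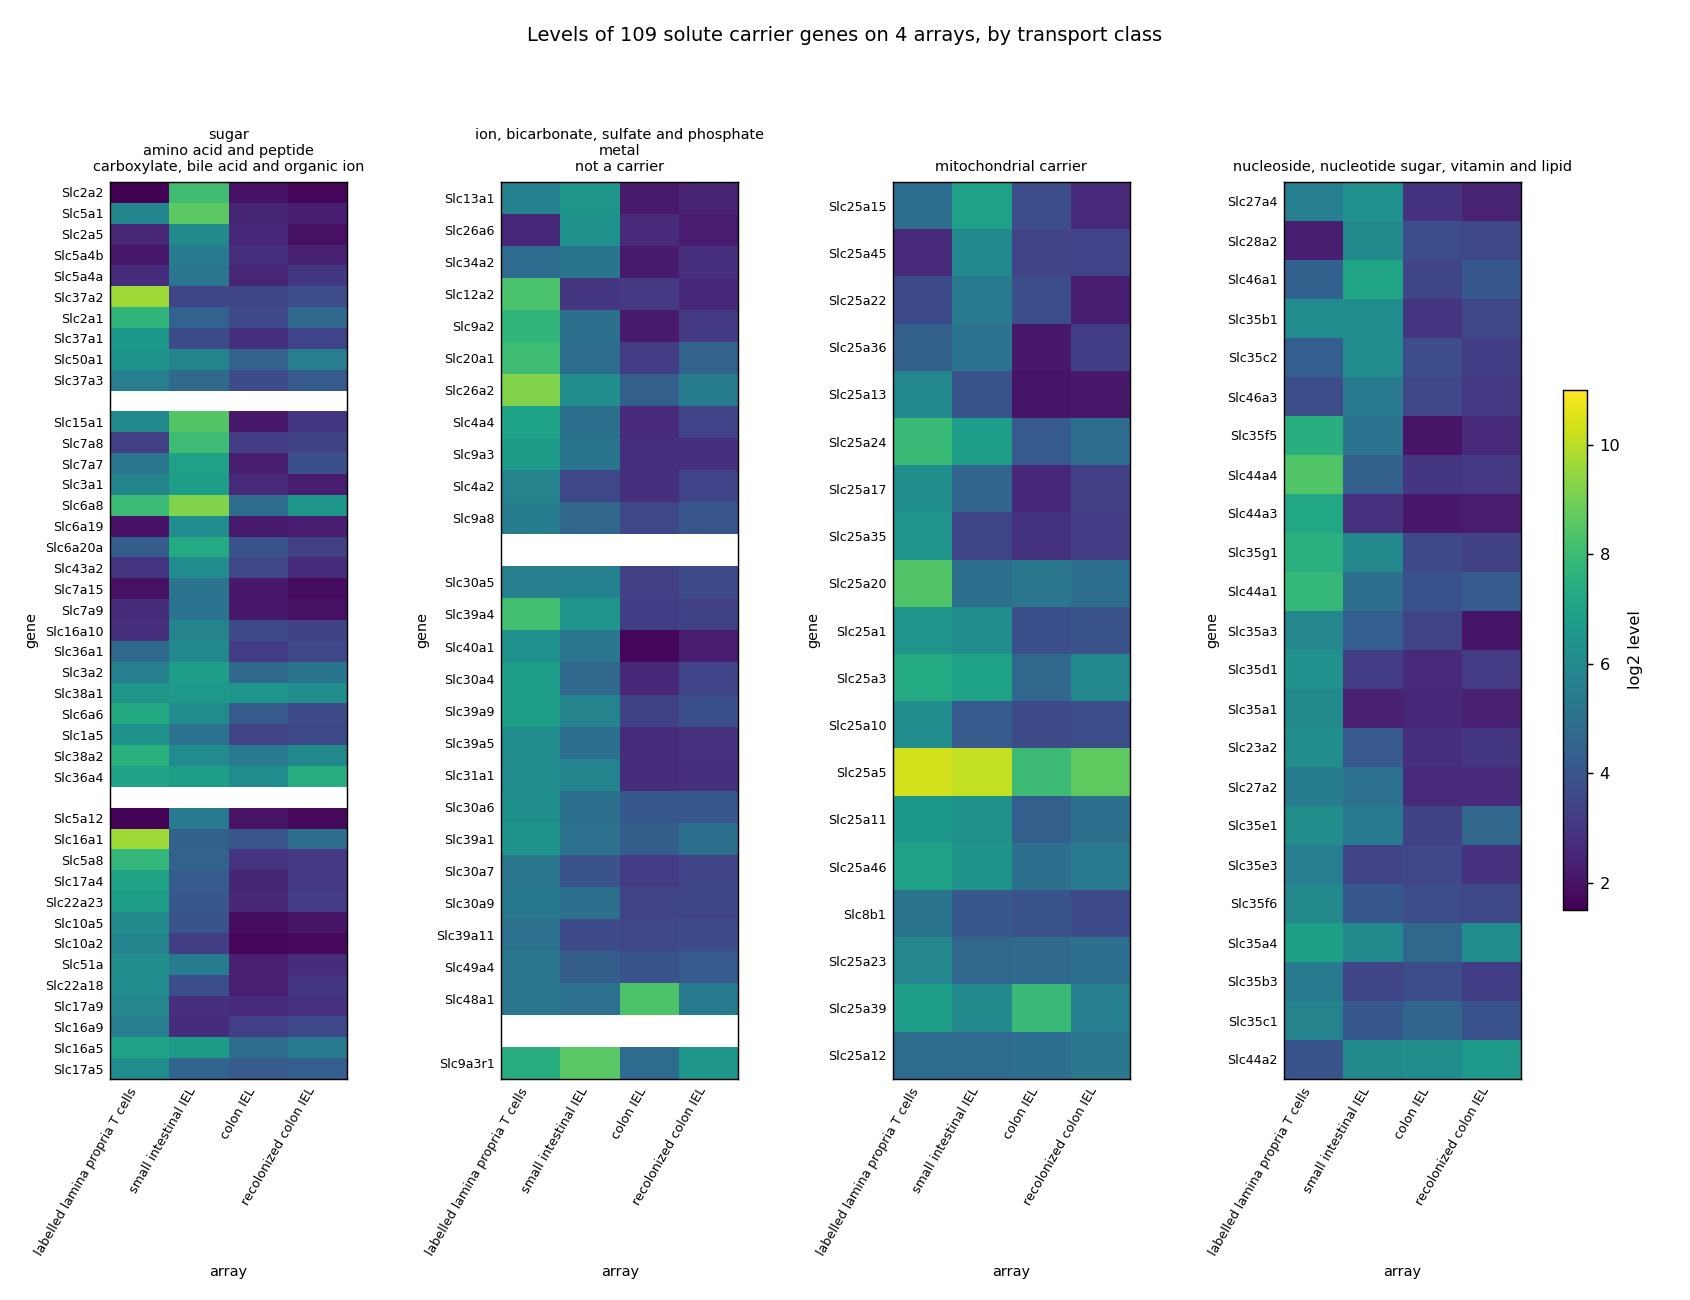
Log2 levels (colour) of the 109 genes (rows) on the 4 arrays (columns), grouped by the transport classes named above each panel, with white bands between classes, and sorted by the array with the highest level. The columns of both colon IEL arrays are mostly dark, and Slc48a1 and Slc25a39 are brightest on the colon IEL array. Colours show each gene across arrays and do not rank genes.

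Sugar carriers split between both epithelium-rich arrays. Of 10 members, 5 had their highest level on the small intestinal IEL array (50%, against 25.7% of genes at the level minimum) and 5 on the lamina propria-labelled array (50%, against 62.1%). Slc5a1, the sodium-glucose cotransporter of the brush border, reached 8.59 on small intestinal IEL, 5.85 on the lamina propria-labelled array, 2.47 on colon IEL and 2.29 on recolonized colon IEL. Slc2a2, the facilitative carrier through which glucose leaves the enterocyte, was at 8.10 on the small intestinal IEL array and at 1.54, 1.96 and 1.68 on the others in the same order. Slc2a5, the fructose carrier of the brush border, was at 6.03 on the small intestinal IEL array and at 2.53, 2.56 and 1.94 elsewhere. The 3 carriers that together absorb dietary glucose and fructose were thus high on 1 array, and only Slc5a1 was also above 5 on the lamina propria-labelled array. Slc5a4a and Slc5a4b, close relatives of Slc5a1 whose probe sets may share signal, were also highest on the small intestinal IEL array, at 5.23 and 5.43.

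The other 5 sugar carriers had their highest level on the lamina propria-labelled array, 3 of them by 2-fold or more. Slc2a1, the widely expressed glucose carrier GLUT1, was at 7.76 on the lamina propria-labelled array, 4.48 on small intestinal IEL, 3.61 on colon IEL and 4.75 on recolonized colon IEL. Its second probe set lay between 2.40 and 2.63 on all 4 arrays and did not show this difference. Slc37a2, a sugar phosphate exchanger of the endoplasmic reticulum, was at 9.64 on the lamina propria-labelled array and between 3.49 and 3.76 on the other 3. Its relatives Slc37a1 and Slc37a3 had their highest levels on the same array, at 6.56 and 5.56. Slc37a3 and Slc50a1 did not lead by 2-fold, with 5.56 and 6.43 there against 4.80 and 5.78 on small intestinal IEL. Slc2a3, the glucose carrier GLUT3 of leukocytes, did not reach the minimum and was at 2.13, 3.87, 3.50 and 3.25 in the order of arrays used for Slc2a1.

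Amino acid and peptide carriers were the class that lay mostly on the small intestinal side. Of 18 members, 14 had their highest level on the small intestinal IEL array (77.8%, against 25.7% of genes at the level minimum), 13 of them by 2-fold or more, and all 18 reached 5 there. Slc15a1, the proton-coupled carrier PEPT1 that takes up di- and tripeptides, was at 6.03 on the lamina propria-labelled array, 8.45 on small intestinal IEL, 2.14 on colon IEL and 2.99 on recolonized colon IEL. Slc6a19, the main brush border carrier of neutral amino acids, had levels of 1.95, 6.12, 2.18 and 2.25 on these arrays, and Slc6a20a, which carries proline, of 4.28, 7.29, 3.98 and 3.30. Slc6a19 was low on all arrays but 1, whereas Slc15a1 was above 5 on both epithelium-rich arrays.

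Some amino acid carriers work as pairs of a heavy and a light subunit. Slc3a1, the heavy subunit of the brush border cystine carrier, was at 5.83, 6.84, 2.64 and 2.23 in the order above. Its light subunit Slc7a9 was at 2.74, 5.11, 2.13 and 1.92. Both were highest on the small intestinal IEL array, but on the lamina propria-labelled array only the heavy subunit was above 5. Slc3a2, the heavy subunit on the blood-facing side and also the CD98 heavy chain of activated lymphocytes, was at 5.62, 6.80, 4.80 and 5.18. Slc3a2 was less spread over the arrays than its light subunits Slc7a7 and Slc7a8. Slc7a7 was at 5.25, 6.95, 2.29 and 3.81, and Slc7a8 at 3.31, 8.03, 3.23 and 3.39. The lymphocyte light subunit Slc7a5 stayed under the minimum, between 3.31 and 4.36. Slc16a10 and Slc43a2, which release amino acids on the blood-facing side, were highest on the small intestinal IEL array at 5.75 and 6.10.

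Other amino acid carriers differed from this pattern. The taurine carrier Slc6a6, the glutamine carrier Slc1a5 and the stress-responsive carrier Slc38a2 had their highest levels on the lamina propria-labelled array, at 7.26, 6.39 and 7.57. A second probe set of Slc1a5 lay between 1.92 and 3.45 and was highest on the colon IEL array. Slc38a1, a sodium-coupled glutamine carrier, was at 6.54, 6.60, 6.50 and 6.16, a range of 0.44 that was among the narrowest of the 109. Slc36a4 was at 6.97, 6.83, 6.14 and 7.43. These last genes are among the 7 that reached 5 on all 4 arrays, with Slc38a2, Slc25a5, Slc25a39, Slc25a46 and Slc48a1. The share that did so was 6.42%, against 18.7% of genes at the level minimum.

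**Figure D2:**
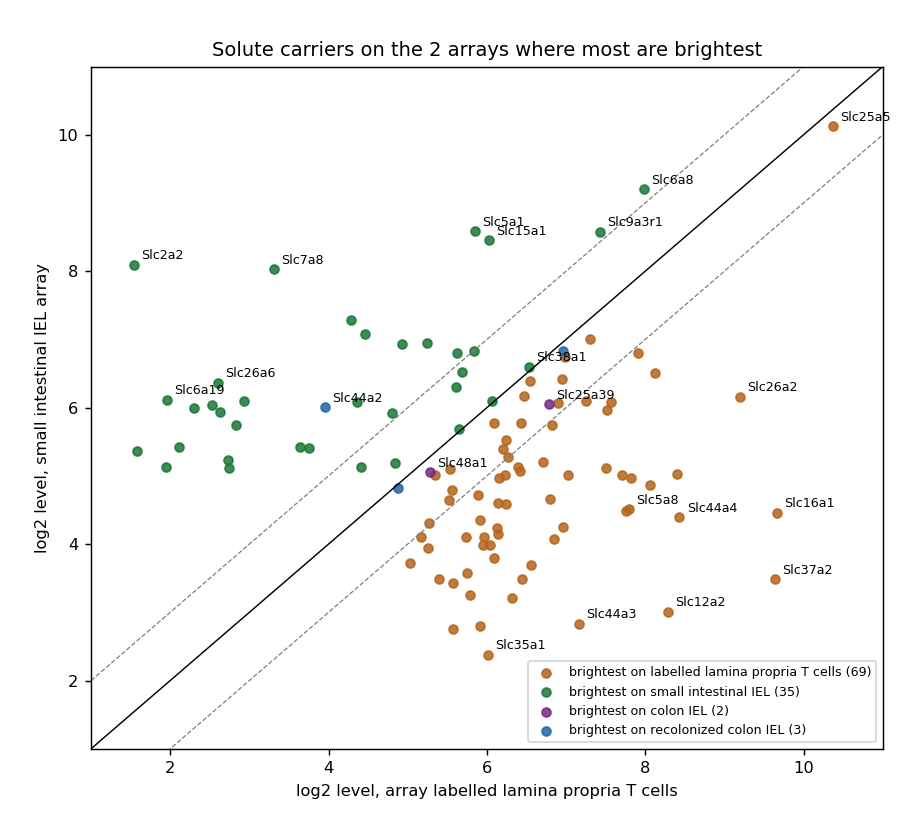
Log2 level on the small intestinal IEL array (vertical) against the lamina propria-labelled array (horizontal) for the 109 genes; each point is a gene, coloured by the array where it is brightest, the solid line marks equal levels and the dashed lines 2-fold. Slc2a2 at 1.54 and 8.10 and Slc12a2 at 8.29 and 3.01 lie far off the line on opposite sides.

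Carriers of carboxylates, bile acids and other organic ions lay on the side of the lamina propria-labelled array. It held the highest level for 12 of 13 members (92.3%, against 62.1% of genes at the level minimum), 10 of them by 2-fold or more. Slc16a1, the proton-coupled monocarboxylate carrier MCT1 that moves butyrate and lactate, was at 9.66 on the lamina propria-labelled array, 4.46 on small intestinal IEL, 4.01 on colon IEL and 4.86 on recolonized colon IEL. Slc5a8, a sodium-coupled carrier of short-chain fatty acids, was at 7.79, 4.51, 2.98 and 3.07 in the same order. Its relative Slc5a12 was the exception of the class, at 1.58, 5.37, 2.01 and 1.70. Slc5a8 and Slc5a12, both sodium-coupled monocarboxylate carriers, were therefore highest on different arrays.

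The bile acid carriers Slc10a2 and Slc51a were also highest on the lamina propria-labelled array, Slc51a by less than 2-fold. Slc10a2, which takes bile acids up from the lumen of the ileum, was at 5.78 on the lamina propria-labelled array, 3.26 on small intestinal IEL, 1.68 on colon IEL and 1.75 on recolonized colon IEL. Slc51a, a subunit of the carrier that releases them to the blood, was at 6.24, 5.53, 2.34 and 2.75. Among other members of the class, Slc17a4 and Slc22a23 were highest on the lamina propria-labelled array at 6.96 and 6.84, and at 4.26 and 4.07 on small intestinal IEL.

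Of 11 carriers of ions, bicarbonate, sulfate and phosphate, 8 had their highest level on the lamina propria-labelled array, a share of 72.7% that is not far from the 62.1% of genes at the level minimum. Slc12a2, the sodium, potassium and chloride cotransporter NKCC1 that loads secretory cells with chloride, was at 8.29 there, 3.01 on small intestinal IEL, 3.06 on colon IEL and 2.55 on recolonized colon IEL. Slc9a2 and Slc9a3, sodium-proton exchangers of the brush border, were at 7.71 and 6.71 on the lamina propria-labelled array and at 5.01 and 5.20 on small intestinal IEL. Slc12a2 was near the level of the colon IEL arrays on small intestinal IEL, while both exchangers were above their colon IEL levels of 2.19 and 2.76. Slc26a2, a sulfate carrier, was at 9.20, 6.16, 4.37 and 5.50 in the order of arrays used for Slc12a2. Slc26a6, an anion exchanger of the small intestine, was instead at 2.60, 6.36, 2.68 and 2.23. Of the phosphate carriers, Slc20a1 was at 8.06 on the lamina propria-labelled array and 4.87 on small intestinal IEL. Slc34a2, the sodium-phosphate cotransporter of the brush border, was within 2-fold on these arrays, at 4.84 and 5.19. Slc9a3r1 matches the symbol rule but encodes NHERF1, a scaffold that anchors carriers and not a carrier itself, and was at 7.43, 8.58, 4.82 and 6.54.

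The 14 carriers of metals and haem were highest on the lamina propria-labelled array in 12 cases (85.7%, against 62.1% of genes at the level minimum). Slc39a4, the zinc importer of enterocytes, was at 8.12 there, 6.50 on small intestinal IEL, 3.25 on colon IEL and 3.35 on recolonized colon IEL. Slc40a1, the iron exporter ferroportin, was at 6.27, 5.28, 1.68 and 2.28. Both were above 5 on the epithelium-rich arrays and lower on both colon IEL arrays. All 14 reached 5 on the lamina propria-labelled array, 9 on small intestinal IEL, 1 on colon IEL and 2 on the recolonized array. The 1 on colon IEL was Slc48a1, a haem carrier, at 5.28, 5.05, 8.36 and 5.42 in the order above, which made colon IEL the only array where it stood apart.

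The class of mitochondrial carriers was assigned by hand, and most of its 19 members pass metabolites through the inner mitochondrial membrane. Of the 19, 13 were highest on the lamina propria-labelled array (68.4%, near the 62.1% of genes at the level minimum). Slc25a5, the ADP/ATP exchanger ANT2, was at 10.37, 10.13, 8.03 and 8.66 in the same order. Slc25a3, the phosphate carrier of ATP synthesis, was at 7.31, 7.00, 4.73 and 5.92. Both had similar levels on the epithelium-rich arrays and were lower on both colon IEL arrays. Slc25a20, which imports acylcarnitines for fatty acid oxidation, was at 8.40 on the lamina propria-labelled array and between 4.95 and 5.26 on the other 3. Slc25a15, the ornithine carrier, was at 4.93, 6.93, 3.74 and 2.64, and Slc25a22, a glutamate carrier, at 3.64, 5.42, 3.78 and 2.31. Slc25a13 and Slc25a12, closely related aspartate-glutamate carriers, had different patterns: Slc25a13 was at 5.95, 3.98, 2.04 and 2.17, and Slc25a12 at 4.87, 4.83, 4.98 and 5.27. Slc25a12 reached 5 on the recolonized array alone, within a range of 0.44 over the arrays.

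The largest class, with 23 members, held carriers of nucleosides, nucleotide sugars, vitamins and lipids, and 16 of them were highest on the lamina propria-labelled array (69.6%, near the 62.1% of genes at the level minimum). Of 13 carriers of the Slc35 family, which supply the Golgi and endoplasmic reticulum with nucleotide sugars and related substrates, Slc35a1, the carrier of CMP-sialic acid, had a level of 6.02 on it and of 2.38 to 2.55 elsewhere. The choline carrier-like genes Slc44a4 and Slc44a3 were at 8.43 and 7.16 on that array and at 4.40 and 2.84 on small intestinal IEL. Their relative Slc44a2 was the only gene that reached 5 on all 3 IEL arrays and not on the lamina propria-labelled array, at 6.01, 6.21 and 6.64 against 3.96. That pattern was found in 0.917% of the 109, against 3.72% of genes at the minimum. Slc46a1, the proton-coupled folate carrier, was at 4.47, 7.07, 3.50 and 4.13 from lamina propria label to recolonized. Slc28a2, a sodium-coupled purine nucleoside carrier, was at 2.30, 6.00, 3.76 and 3.57, and Slc27a4, a fatty acid carrier of enterocytes, at 5.61, 6.31, 2.91 and 2.45.

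**Figure D3:**
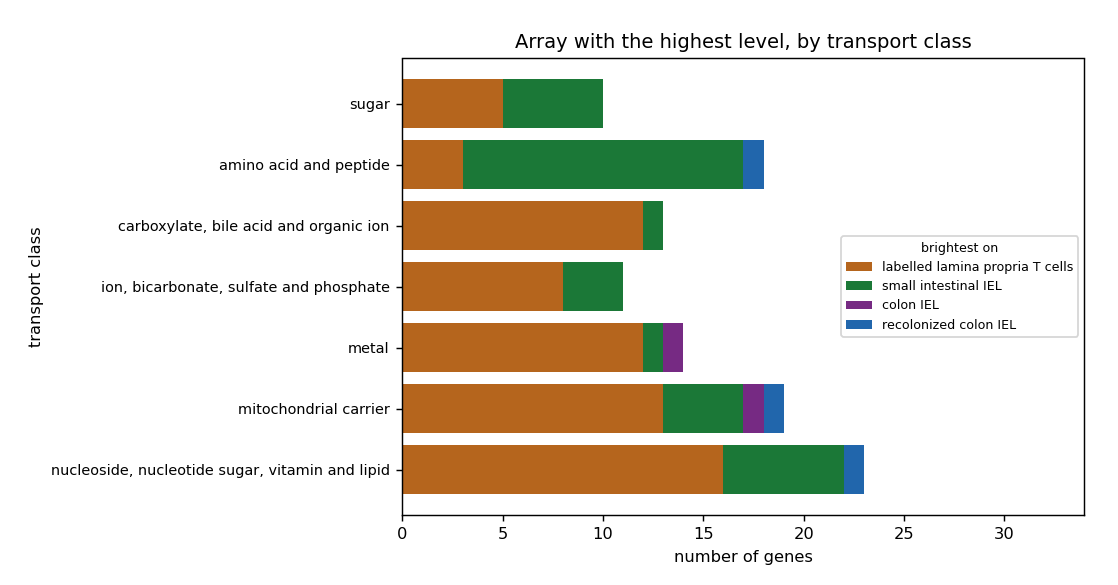
Number of genes (horizontal) whose highest level fell on each array (colour), for 7 transport classes (vertical); Slc9a3r1, not a carrier, is left out. Amino acid and peptide carriers fell mostly on the small intestinal IEL array (14 of 18), carboxylate and bile acid carriers on the lamina propria-labelled array (12 of 13).

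The DNA upstream of the start site was examined for carriers that act together and shared an array. RefSeq windows of 300 bases (250 before and 50 after a start site, GRCm38.p6) were matched for 89 of the 109 genes, with 113 windows. The stretches below are the 250 bases before the start, 5′ to 3′ on the strand of the gene, with matches to the searched motifs in capitals. They show the cystine carrier subunits Slc3a1 and Slc7a9 and the glucose carriers Slc5a1 and Slc2a2, brightest on the small intestinal IEL array, beside the butyrate carriers Slc16a1 and Slc5a8, brightest on the lamina propria-labelled array. The positions are chr17:85028097-85028346 for Slc3a1, chr7:35448842-35449091 for Slc7a9, chr5:33103969-33104218 for Slc5a1, chr3:28697653-28697902 for Slc2a2, chr3:104638414-104638663 for Slc16a1, chr10:88885742-88885991 for Slc5a8, all on the + strand.
Slc3a1: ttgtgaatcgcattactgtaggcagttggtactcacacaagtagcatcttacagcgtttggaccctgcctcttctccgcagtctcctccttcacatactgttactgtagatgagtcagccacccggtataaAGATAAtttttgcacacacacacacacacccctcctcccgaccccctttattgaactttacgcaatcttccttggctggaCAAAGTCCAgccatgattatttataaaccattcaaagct
Slc7a9: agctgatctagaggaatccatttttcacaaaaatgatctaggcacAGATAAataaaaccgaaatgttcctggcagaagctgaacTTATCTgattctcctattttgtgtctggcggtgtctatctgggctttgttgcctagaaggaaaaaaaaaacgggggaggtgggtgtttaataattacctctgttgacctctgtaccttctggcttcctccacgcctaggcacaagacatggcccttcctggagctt
Slc5a1: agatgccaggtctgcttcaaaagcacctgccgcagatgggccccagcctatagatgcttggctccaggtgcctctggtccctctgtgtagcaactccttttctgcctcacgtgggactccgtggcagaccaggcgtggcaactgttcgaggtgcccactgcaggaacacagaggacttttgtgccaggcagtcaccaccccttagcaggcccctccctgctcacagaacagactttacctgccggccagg
Slc2a2: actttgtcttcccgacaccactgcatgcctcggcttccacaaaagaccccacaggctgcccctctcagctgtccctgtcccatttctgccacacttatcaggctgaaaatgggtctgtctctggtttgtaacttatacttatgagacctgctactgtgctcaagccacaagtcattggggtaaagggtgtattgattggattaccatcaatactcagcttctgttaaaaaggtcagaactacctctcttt
Slc16a1: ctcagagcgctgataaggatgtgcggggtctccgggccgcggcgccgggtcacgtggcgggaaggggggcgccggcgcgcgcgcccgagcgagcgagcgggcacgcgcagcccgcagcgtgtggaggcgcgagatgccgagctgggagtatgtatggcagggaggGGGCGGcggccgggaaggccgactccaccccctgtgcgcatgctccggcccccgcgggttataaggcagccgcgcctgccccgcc
Slc5a8: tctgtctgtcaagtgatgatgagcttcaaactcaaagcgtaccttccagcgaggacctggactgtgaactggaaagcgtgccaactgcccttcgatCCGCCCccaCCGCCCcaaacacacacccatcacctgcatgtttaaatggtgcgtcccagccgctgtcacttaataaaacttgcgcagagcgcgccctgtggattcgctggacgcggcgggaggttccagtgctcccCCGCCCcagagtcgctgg
The motifs, read on both strands, were the palindromic HNF1 site, CAAAGTCCA for HNF4, TTTATGG for CDX, AGATAA for GATA factors, CCGGAAG for ETS factors and GGGCGG for SP1. The HNF1 letters were in 0 of the 113 windows, but in only 3 of all 32851 windows. Their absence here is therefore not a trait of these genes. Slc3a1 had AGATAA starting 119 bases and CAAAGTCCA 39 bases before its start site. Slc7a9 had AGATAA at 205 and TTATCT, its reverse complement, at 166 bases. Slc7a9 has 2 windows, of which the one with the lowest position is shown, and its other window held none of the letters. Slc16a1 had GGGCGG at 85 bases, and Slc5a8 had CCGCCC at 154, 145 and 18 bases. Slc5a1 and Slc2a2 held none of the letters in this stretch. A match is a description of letters, not evidence of binding.

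Over whole windows, the AGATAA letters were in 16.2% of the 37 windows of genes that led on the small intestinal IEL array by 2-fold. That is 6 windows of 5 genes. The letters were in 4.0% of the 50 windows of genes that led on the lamina propria-labelled array. In windows of all genes at the level minimum the share was 6.54% (11.2% of all windows in the table). GGGCGG was in 62.2%, 72.0% and 62.8% (35.7% of all windows). The median GC content of these windows was 56.0%, 64.2% and 61.3%. The HNF4 and CDX letters were each in 1 of the 113 windows. Windows of the same gene may overlap and base composition moves with AGATAA and GGGCGG, so these shares were not tested.

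The small intestinal IEL array was then set against the lamina propria-labelled array, the pair with the brightest solute carriers. Of the 109, 29 were at least 2-fold higher on small intestinal IEL (26.6%), where 8.76% of all genes above the level floor and 13.9% of genes at the level minimum were. A gene passed the floor if its level on the brighter of both arrays was not under the 50th percentile of all genes there. Another 52 were at least 2-fold lower (47.7%), against 15.7% and 27.6%. The widest positive differences were those of Slc2a2 with 6.56, Slc7a8 with 4.72, Slc6a19 with 4.16, Slc5a12 with 3.79 and Slc26a6 with 3.77; Slc2a2, Slc6a19 and Slc5a12 lay under the median of all genes on the lamina propria-labelled array, so these values depend on its low end. The widest negative ones were those of Slc37a2 with -6.15, Slc12a2 with -5.28, Slc16a1 with -5.20, Slc44a3 with -4.32 and Slc44a4 with -4.04. By class, 13 of 18 amino acid and peptide carriers were higher and 3 lower, and 5 of 10 sugar carriers higher and 3 lower. Of 13 carboxylate and bile acid carriers 1 was higher and 10 lower, and of 14 metal carriers 0 were higher and 8 lower. Marker lists of several cell types differed in the same comparison. Enterocyte markers were at least 2-fold higher on small intestinal IEL in 12 of 12 cases (median 4.0), T cell markers in 9 of 9 (median 4.01) and B cell markers in 6 of 6 (median 4.73). Colonocyte markers were lower in 8 of 8 (median -4.81) and pan-epithelial markers in 8 of 10 (median -2.08). Their part in the solute carrier differences was not tested.

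By its labels the next pair, colon IEL and the lamina propria-labelled array, contrasts T cells of 2 neighbouring compartments; the second array had epithelial markers and no T cell marker at 5. The floor left 105 solute carriers, of which 83 were lower by 2-fold or more on colon IEL (79.0%), against 34.7% of all genes above the floor and 68.0% of genes at the level minimum. The number at least 2-fold higher was 4 (3.81%), against 10.5% and 9.46%; it was 8 under quantile normalization, centring or lowess correction. The median difference of the 105 was -2.61, against -0.44 over all genes above the floor and -1.66 over genes at the minimum. The 4 higher genes were Slc48a1 with 3.08, Slc44a2 with 2.25, Slc28a2 with 1.45 and Slc25a39, a carrier of glutathione into mitochondria, with 1.10. The widest negative differences were those of Slc37a2 with -6.14, Slc16a1 with -5.65, Slc9a2 with -5.53, Slc35f5 with -5.50 and Slc44a4 with -5.42. All 12 measured carboxylate and bile acid carriers above the floor, 13 of 14 metal carriers and 8 of 16 amino acid carriers were lower. With the recolonized array in its place, Slc44a2 and Slc28a2 were again at least 2-fold higher, with differences of 2.68 and 1.27, and Slc48a1 and Slc25a39 were not, with 0.14 and -1.18. In the same comparison of colon IEL, T cell markers were higher in 9 of 9 cases (median 4.15) and stromal markers in 6 of 7 (median 3.68) and B cell markers in 5 of 5 (median 1.62), with pan-epithelial markers lower in 10 of 10 (median -4.19) and colonocyte markers in 8 of 8 (median -5.25); their part was not tested.

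The next comparison set colon IEL against small intestinal IEL, the same lymphocyte compartment at another gut site. All 109 were above the floor, and 75 were at least 2-fold lower on colon IEL (68.8%), against 24.4% of all genes above the floor and 54.0% of genes at the minimum. Those higher were 2 (1.83%, against 5.98% and 3.51%), namely Slc48a1 with 3.31 and Slc25a39 with 1.83; with the recolonized array in its place 0 were higher, and under quantile normalization 7. The median difference was -1.91, and the widest were those of Slc15a1 with -6.31, Slc2a2 with -6.13, Slc5a1 with -6.12, Slc7a8 with -4.80 and Slc7a7 with -4.66. Of 18 amino acid and peptide carriers 15 were lower and 0 higher. Carriers within 2-fold included Slc38a1 with -0.10, Slc44a2 with 0.20, Slc12a2 with 0.05 and Slc25a20 with 0.23. This comparison shares the colon IEL array with the preceding one, so the counts are not independent. All 12 enterocyte markers were lower on colon IEL by 2-fold or more, with a median of -6.33. Pan-epithelial markers were so in 8 of 10 cases (median -1.99) and B cell markers in 5 of 6 (median -2.64), while stromal markers were higher in 5 of 8 (median 2.06) and T cell markers higher in 1 and lower in 2 of 9. The part of these lists was not tested.

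**Figure D4:**
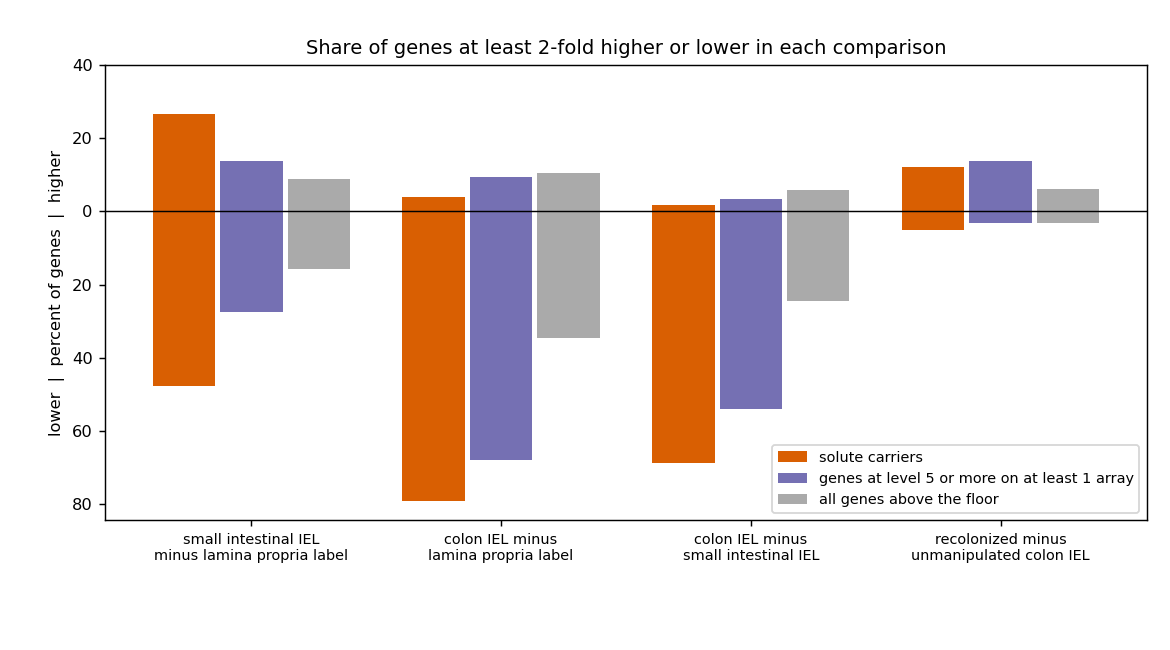
Percent of genes (vertical) at least 2-fold higher (upward) or lower (downward) in each of 4 comparisons, for the solute carriers, for all genes at level 5 or more on at least 1 array, and for all genes above the floor. For recolonized against unmanipulated colon IEL the solute carriers stood at 12.1% higher and 5.05% lower, near the 13.9% and 3.16% of genes at the minimum.

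The last comparison set recolonized against unmanipulated colon IEL; it joins antibiotic treatment and recolonization, and no array had antibiotics alone. The floor left 99 solute carriers, of which 12 were higher by 2-fold or more on the recolonized array (12.1%), against 6.04% of all genes above the floor and 13.9% of genes at the level minimum. Another 5 were lower (5.05%), against 3.06% and 3.16%, and the other 82 were within 2-fold. Higher genes made up 70.6% of the 17 past 2-fold. Among genes at the level minimum 560 were higher and 127 lower, and among all genes above the floor 751 and 381. Under quantile normalization higher solute carriers made up 57.9% of 19, and after a lowess correction 58.3% of 12. The widest positive differences were those of Slc9a3r1 with 1.73, the creatine carrier Slc6a8 with 1.64, Slc7a7 with 1.52, Slc35a4 with 1.45 and Slc20a1 with 1.32. A second probe set of Slc35a4 differed by 0.14 only, that of Slc36a4 by -0.55 where the main one differed by 1.30, and that of Slc2a1 by -0.11 where the main one differed by 1.14. Colonocyte markers were at least 2-fold higher on the recolonized array in 5 of 8 cases, with a median difference of 2.47. Goblet cell markers were so in 5 of 7, with a median of 1.70, pan-epithelial markers in 4 of 10 and T cell markers in 1 of 9. B cell markers were lower in 4 of 5, with a median of -1.43. Their part in the solute carrier differences was not tested.

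Slc48a1, with 5.42 against 8.36 on unmanipulated colon IEL, and Slc25a39, with 5.61 against 7.89, led the 5 lower genes. They were followed by Slc25a22 with a difference of -1.48, Slc35a3, the carrier of UDP-N-acetylglucosamine, with -1.41 and Slc25a15 with -1.10. Of these, Slc48a1 and Slc25a39 were also the only members highest on unmanipulated colon IEL. Some genes of red cells were also higher on that array: the left-out carriers Slc4a1 and Slc25a37 were at 7.94 and 10.27 there and at 2.32 and 4.41 on the recolonized array, and the haem synthesis gene Fech at 9.56 against 4.52. Over the 5 measured of 10 listed erythroid markers, the summed log2 level was 20.5 on colon IEL and 13.7 on recolonized colon IEL, and 16.7 and 13.9 on the lamina propria-labelled array and small intestinal IEL. Most of that gap was Fech, the only one of the 5 to reach a level of 5 on colon IEL. The other 4 went different ways: Ank1 was at 3.72 on colon IEL and 2.65 on the recolonized array and Epb42 at 2.48 and 1.63, whereas Trim58 was at 2.04 and 1.96 and Tfrc, the transferrin receptor, at 2.65 and 2.92, with 6.02 on the lamina propria-labelled array. The part of red cells in these levels was not tested.

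**Figure D5:**
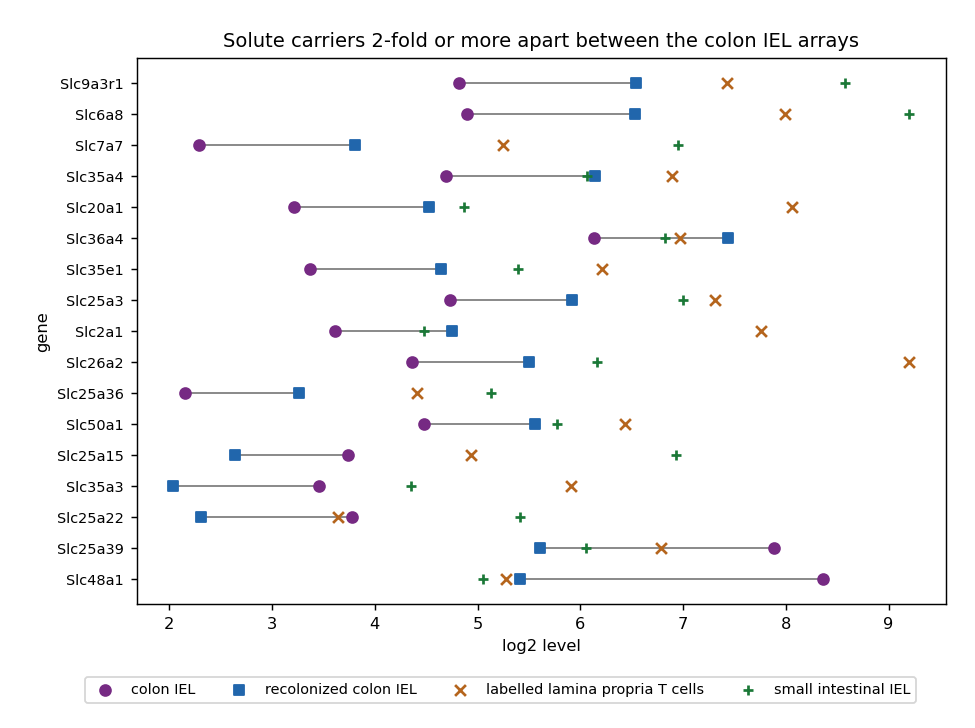
Log2 levels (horizontal) of the 17 genes (vertical) that differ by 2-fold or more between both colon IEL arrays; grey lines join colon IEL and recolonized colon IEL, crosses mark the other arrays. Slc48a1 moves from 8.36 on colon IEL to 5.42, near its level on the other arrays.

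Transport genes outside the Slc symbol were counted in the same way. Of 18 epithelial channels and aquaporins, 17 passed the floor. On small intestinal IEL 12 of them were lower by 2-fold or more than on the lamina propria-labelled array and 2 higher (70.6% and 11.8%). These lists had to pass the floor and not the level minimum. Over all genes above the floor 15.7% were lower and 8.76% higher, and of genes at the level minimum 27.6% and 13.9%. The chloride channel Cftr, which works with Slc12a2 in secretion, was at 7.01 on the lamina propria-labelled array, 2.67 on small intestinal IEL, 1.79 on colon IEL and 2.07 on recolonized colon IEL. Of 21 ABC transporters above the floor, 6 were higher and 6 lower in this comparison (28.6% each), from Abcc2, an exporter of conjugates, at 7.53 against 1.73, to Abcc3 at 4.15 against 8.19. Among 8 sodium and calcium pumps above the floor, 0 were higher and 3 lower (37.5%, against 15.7% of all genes above the floor). Atp1b1, a subunit of the sodium pump that powers sodium-coupled carriers, was at 10.29, 9.51, 5.22 and 7.57 on the 4 arrays in the order above, and its relative Atp1b3 at 5.12, 5.07, 6.21 and 6.76. Atp1b1 was lower on the colon IEL arrays and Atp1b3 higher. Of 4 Slco organic anion transporters above the floor, 0 were higher and 1 lower (25%, against 15.7%), too few genes to read a share from. Among 8 transporter partners and regulators above the floor 2 were higher and 2 lower (25% each). Of these, Bsg, the partner protein of Slc16a1, was at 8.50, 6.92, 6.33 and 5.65, and Emb, which partners monocarboxylate carriers too, at 2.51, 5.84, 6.89 and 6.82, higher on the 3 IEL arrays, where Slc16a1 was lower.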

How the data were processed

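RNA of 4 samples was hybridised to Affymetrix arrays, 1 per group. The authors deposited 1 log2 value per probe set. The submitters' processing notes name Affymetrix Expression Console; how it summarized and normalized the probes is not stated in the labels or headers. The table held 41345 probe sets, 23521 of them with 1 gene symbol. A gene was represented by the brightest, by mean, of its single-symbol probe sets; 8 of the 109 members had more than 1 probe set.

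Differences of log2 levels were computed between arrays with Python 3.11.15 and pandas 2.3.3, and counted at 2-fold or more above a floor at the 50th percentile of the brighter array. With 1 array per group no test was run and the number of arrays limits the precision. The counting steps were tested on simulated data. The lowess correction used statsmodels 0.14.6 with a span of 0.3. The members, gene lists, transport classes and motifs were chosen with earlier results of these data known. Genes were named when among the 8 widest differences in either direction of a comparison, the 8 brightest on an array, the 4 with the widest range in a class, or a list of fixed names; other members are named as examples chosen after their values were seen. Of the fixed names, Slc51b and Slc30a10 were not analysed here.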

Additional observations from a re-analysis of the deposited data

How the results depend on the processing

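Each count of solute carriers was recomputed without a level floor, with a floor at the 75th percentile, at 1.5-fold and 3-fold, with the mean of probe sets, and under quantile normalization, median centring and lowess correction; 53 of 68 recomputed counts stayed within 1.5 times the main count, including every count of genes lower in the comparisons with the lamina propria-labelled array or with small intestinal IEL. The 4 genes higher on colon IEL than on the lamina propria-labelled array became 8 at 1.5-fold, under quantile normalization, after centring and after lowess correction, and 2 at 3-fold or with the recolonized array. The 2 higher on colon IEL than on small intestinal IEL became 7 under quantile normalization, 6 after lowess correction and 0 with the recolonized array. For recolonized against unmanipulated colon IEL, the 12 higher became 31 at 1.5-fold, 2 at 3-fold and 7 after lowess correction, and the 5 lower became 10 at 1.5-fold, 2 at 3-fold and 8 under quantile normalization. Centring removes the median difference of genes above the floor, which was -0.17, -0.44, -0.30 and 0.13 in the 4 comparisons in the order described. Of 276 differences of named genes, 26 changed sign under at least 1 alternative (20 after lowess correction, 14 under quantile normalization, 12 after centring, 1 with the mean of probe sets), and 1 of these was 2-fold or more: Slc35c1 on colon IEL against the lamina propria-labelled array was -1.15, and 0.15 under quantile normalization and 0.25 after lowess correction; the cause was not tested. No paired analysis was possible because each group had 1 array. Many levels on the colon IEL arrays lie near the median of all genes, which limits how large a difference can appear.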
